A study of Mus musculus with 16 samples.

Results

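The genes described here are 10 genes that mark the endothelial cells lining the sinusoids of the liver. They were taken by name, as Stab1, Stab2, Lyve1, Clec4g, Fcgr2b, Oit3, Gpr182, Kdr, Pecam1 and Cdh5, and found in the count table by their Ensembl identifiers. All 10 are among 55357 genes in the table, and all 10 passed the filter on low counts that left 14421 genes for testing. The names were chosen with earlier results of these data known, but no measured value entered the choice.

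Total RNA of mouse liver was sequenced after depletion of ribosomal RNA, in 4 groups of 4 libraries. AUG livers carry the genotype labelled mTERC CUG/AUG, a change in Terc (which encodes the RNA of telomerase), and AUG_WT livers are the wild types of that line. The del7 livers carry mTERC 29_35del, a deletion of 7 nucleotides at positions 29 to 35, and del7_WT livers are the wild types of that line. None of the groups was treated, and age, sex and strain are not given in the labels. Nothing in the labels says that replicates came from different animals. The p-values therefore reflect only how far these samples vary, some of which may be technical variation.

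Libraries held from 7714058 to 14629022 counts in genes. Levels are given as CPM, which are counts per 1000000 after scaling of the library totals by TMM. The library AUG_WT replicate 1 was picked in advance for its immune content, so its immune marker levels describe that choice and are not a separate result. The summed CPM of 12 B cell markers was 1369 in it, against 39.3 to 351 in the others. That of 10 hepatocyte genes was 44919, against 96897 to 155250. The part of this library in the results was not tested beyond leaving it out of the fit.

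Sinusoidal endothelial cells form a perforated lining without a continuous basement membrane, through which plasma reaches the hepatocytes. They are known as scavengers that clear hyaluronan, modified lipoproteins, collagen fragments and immune complexes from the blood by receptor-mediated uptake. Stab1 and Stab2 encode the stabilins, large scavenger receptors. Lyve1 encodes a hyaluronan receptor that also marks lymphatic endothelium and some macrophages. Fcgr2b encodes the inhibitory receptor for IgG immune complexes, which B cells and myeloid cells also make. Clec4g encodes a C-type lectin, Oit3 a secreted protein with a zona pellucida domain, and Gpr182 an atypical chemokine receptor. Kdr encodes the VEGF receptor VEGFR2, Pecam1 an adhesion molecule also found on platelets and leukocytes, and Cdh5 the cadherin of endothelial junctions. The last 3 are made by most endothelia.

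Promoters are shown for Stab1, Stab2 and Clec4g, because the stabilins are paralogues whose levels parted in 1 library and Clec4g had the highest level per length. They were read from RefSeq on GRCm38.p6, which held 5 of the 10 members (Stab1, Stab2, Clec4g, Kdr and Fcgr2b), and run from 250 bases before to 50 bases after the start of the gene. The Stab1 window is chr14:31168592-31168891 on the minus strand, the Stab2 window chr10:87007893-87008192 on the minus strand, and the Clec4g window chr8:3720602-3720901 on the minus strand. Capitals mark the word AGGAAG, or its reverse complement CTTCCT, which holds the shorter core GGAA of the sites read by ETS factors of endothelial cells. Other words that hold GGAA are neither marked nor counted.
Stab1: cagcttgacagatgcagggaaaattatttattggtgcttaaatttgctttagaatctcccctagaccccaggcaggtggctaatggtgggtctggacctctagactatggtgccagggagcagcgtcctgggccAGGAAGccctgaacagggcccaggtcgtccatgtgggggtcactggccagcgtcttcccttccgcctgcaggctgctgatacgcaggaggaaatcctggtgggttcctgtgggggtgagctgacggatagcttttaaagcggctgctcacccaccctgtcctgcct
Stab2: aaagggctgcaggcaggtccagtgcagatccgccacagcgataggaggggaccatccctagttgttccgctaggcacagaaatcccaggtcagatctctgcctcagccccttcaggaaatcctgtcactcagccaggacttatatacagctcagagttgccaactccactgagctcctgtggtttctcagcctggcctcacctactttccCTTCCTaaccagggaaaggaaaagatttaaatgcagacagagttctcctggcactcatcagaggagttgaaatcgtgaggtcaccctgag
Clec4g: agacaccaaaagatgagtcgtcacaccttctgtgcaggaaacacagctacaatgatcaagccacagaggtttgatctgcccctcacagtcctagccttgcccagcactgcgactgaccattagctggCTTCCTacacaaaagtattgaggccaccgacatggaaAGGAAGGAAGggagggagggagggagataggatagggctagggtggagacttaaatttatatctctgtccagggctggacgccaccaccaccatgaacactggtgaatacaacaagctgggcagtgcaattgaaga
The word occurred once in each stabilin window and in 3 places in the Clec4g window, of which the pair in AGGAAGGAAG overlap. The full word was absent from the Kdr and Fcgr2b windows, although both hold the shorter GGAA. It was present in 35.4% of 32851 promoters of the same length. The word AGATAA, or its reverse complement TTATCT, which GATA factors read, was in none of the 5 windows and in 11.2% of all promoters. A match is a string of letters, not a shown binding site.

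Per length, Clec4g and Stab2 were the most abundant members and Lyve1 the least. Over the 15 libraries other than AUG_WT replicate 1, Clec4g had a level of 21.97 ± 2.09 CPM per kb of exon (SD) and Stab2 18.5 ± 1.62. Next came Oit3 at 13.3 ± 1.57, Kdr at 13.04 ± 1.16, Fcgr2b at 12.9 ± 1.20, Cdh5 at 12.7 ± 2.07 and Stab1 at 11.4 ± 2.64 CPM per kb, whose ranges overlapped from each to the next. Gpr182 had 9.21 ± 2.096, Pecam1 4.79 ± 0.629 and Lyve1 1.87 ± 1.62 CPM per kb. Ranges of neighbours in this order were apart only between Stab2 (lowest library 15.522) and Oit3 (highest 15.507) and between Gpr182 (lowest 6.67) and Pecam1 (highest 5.98). In AUG_WT replicate 1 the order differed: Fcgr2b came first, and Kdr and Oit3 lay below Lyve1.

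**Figure D1:**
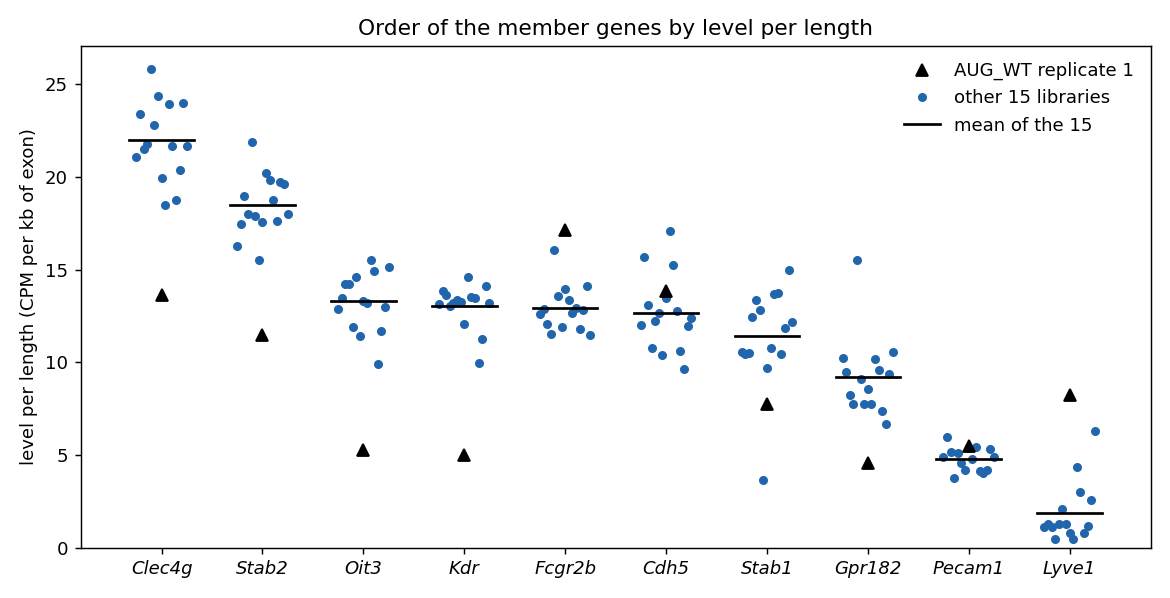
Level of each member gene per length (CPM per kb of exon) in AUG_WT replicate 1 (black triangles) and in the other 15 libraries (blue points, with the line at their mean). Clec4g and Stab2 have the highest means, 21.97 and 18.5, and the triangle lies below all 15 points for Clec4g, Stab2, Oit3, Kdr and Gpr182.

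Among the 10 members, 0 rose and 0 fell in AUG against AUG_WT by edgeR at an adjusted p under 0.05, a threshold that 0.0277% of all tested genes passed. At an unadjusted p under 0.05 there was 1 member, Fcgr2b, against 8.81% of all tested genes. The members had a median log2 fold change of 0.05, with 7 above 0 and 3 below, and that of all tested genes was -0.04. Without AUG_WT replicate 1 the members' median was -0.0019, with 5 on each side, and 0 members reached an unadjusted p under 0.05, against 5.92% of tested genes. In bulk tissue, fewer cells of a type and less RNA per cell cannot be told apart, so none of these values separates endothelial cell number from gene activity.

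The stabilins differed little between AUG and AUG_WT on average. Stab1 (ENSMUSG00000042286.14, chromosome 14) had 109, 108, 108 and 128 CPM in AUG replicates 1 to 4, against 79.7, 137, 132 and 37.7 CPM in AUG_WT. The AUG libraries lay inside the AUG_WT range, which 1 low library (replicate 4) widened. The log2 fold change was 0.23 (SE 0.29, edgeR adjusted p = 0.829). It was 0.17 without AUG_WT replicate 1, and -0.04 (adjusted p = 0.944) without AUG_WT replicate 4. Stab2 (ENSMUSG00000035459.19, chromosome 10) had 142, 153, 166 and 158 CPM in AUG, against 100.2, 192, 157 and 136 CPM in AUG_WT. Again AUG lay inside the wild-type range, at 0.08 on the log2 scale (SE 0.15, 95% interval -0.24 to 0.40, edgeR adjusted p = 0.888). The sign turned without AUG_WT replicate 1, to -0.04 (SE 0.11).

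Lyve1 (ENSMUSG00000030787.5, chromosome 7) was the member with the largest fold change, and 1 wild-type library carried most of it. It had 3.29, 3.68, 3.23 and 1.36 CPM in AUG, against 24.1, 3.70, 6.14 and 3.75 CPM in AUG_WT. These rest on 17 to 37 counts per library in AUG and 39 to 343 in AUG_WT. The groups did not overlap, though only by the gap of 3.68 to 3.70 CPM, and 1.20% of all tested genes were lower in AUG without overlap. Of the members 0 were higher in AUG without overlap (0.853% of tested genes). The log2 fold change was -1.72 (SE 0.81, edgeR adjusted p = 0.570). Without AUG_WT replicate 1 it was -0.63 (SE 0.77, adjusted p = 0.935).

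Fcgr2b (ENSMUSG00000026656.16, chromosome 1) had 73.0, 74.5, 69.9 and 66.9 CPM in AUG, against 99.1, 93.1, 78.6 and 68.8 CPM in AUG_WT. The AUG libraries were close together and overlapped AUG_WT through its replicate 4. The log2 fold change was -0.26 (SE 0.11, edgeR adjusted p = 0.561), and without AUG_WT replicate 1, in which B cell markers were high, it was -0.15 (adjusted p = 0.891). The part of B cell RNA in it was not tested.

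The other receptors and the secreted marker showed the same layout, with AUG inside or across the wild-type range. Clec4g (ENSMUSG00000074491.10, chromosome 8) had 51.9, 57.7, 53.0 and 53.6 CPM in AUG, against 33.6, 63.5, 56.1 and 59.9 CPM in AUG_WT (log2 fold change 0.02, 95% interval -0.32 to 0.36, edgeR adjusted p = 0.982). Its sign too turned without AUG_WT replicate 1, to -0.13 (SE 0.10, adjusted p = 0.905). Oit3 (ENSMUSG00000009654.5, chromosome 10) had 35.9, 37.6, 39.7 and 39.7 CPM in AUG, against 14.7, 33.2, 40.7 and 31.8 CPM in AUG_WT. Its log2 fold change was 0.35 (SE 0.22, edgeR adjusted p = 0.664), and 0.14 without AUG_WT replicate 1. Gpr182 (ENSMUSG00000058396.8, chromosome 10) had 40.5, 37.5, 32.5 and 30.6 CPM in AUG, against 18.1, 61.3, 36.03 and 30.6 CPM in AUG_WT. Its wild-type values held both a low and a high library, and the log2 fold change, -0.05 (SE 0.27, edgeR adjusted p = 0.974), was -0.25 without AUG_WT replicate 1 and 0.33 without AUG_WT replicate 2.

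Among the members that most endothelia make, Kdr (ENSMUSG00000062960.11, chromosome 5) was the most even outside AUG_WT replicate 1. It had 119, 125, 123 and 118 CPM in AUG, against 45.0, 119, 120 and 120 CPM in AUG_WT. Its log2 fold change, 0.26 (SE 0.23, edgeR adjusted p = 0.744), was 0.04 (SE 0.11, adjusted p = 0.971) without that library. Pecam1 (ENSMUSG00000020717.20, chromosome 11) had 30.3, 37.2, 32.3 and 23.5 CPM in AUG, against 34.2, 31.8, 28.4 and 26.3 CPM in AUG_WT. Its groups overlapped fully (log2 fold change 0.03, 95% interval -0.28 to 0.34, edgeR adjusted p = 0.967), and the value was 0.12 (SE 0.15) without AUG_WT replicate 1. Cdh5 (ENSMUSG00000031871.10, chromosome 8) had 50.5, 66.0, 55.1 and 45.3 CPM in AUG, against 58.1, 51.4, 53.2 and 43.6 CPM in AUG_WT, with a log2 fold change of 0.07 (95% interval -0.22 to 0.36, edgeR adjusted p = 0.894) and 0.15 (SE 0.14) without that library.

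**Figure D2:**
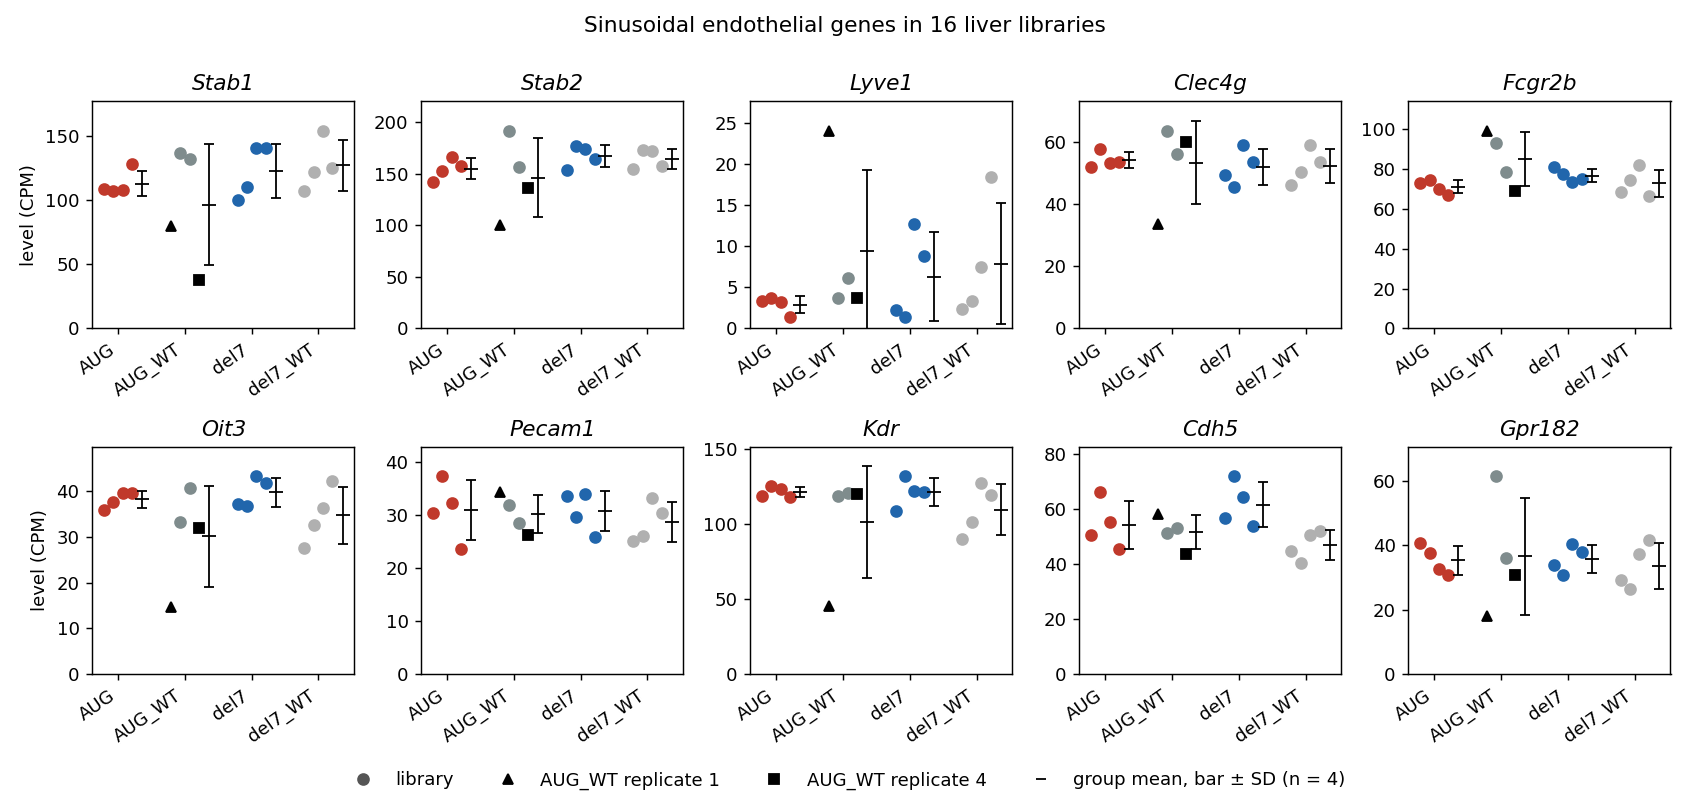
Level (CPM, linear axes from 0) of each member gene in every library of AUG, AUG_WT, del7 and del7_WT, with the group mean and SD (n = 4) beside the points; bars are cut at 0. AUG_WT replicate 1 (triangle) is low for Kdr at 45.0 and high for Lyve1 at 24.1, and AUG_WT replicate 4 (square) is low for Stab1 at 37.7.

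In del7 against del7_WT, 0 of 10 members rose and 0 fell by edgeR at an adjusted p under 0.05, which 0.00% of all tested genes passed. At an unadjusted p under 0.05 there was 1 member, Cdh5, against 1.92% of all tested genes. The median log2 fold change of the members was 0.08, with 7 above 0 and 3 below, and that of all tested genes was 0.00014.

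Cdh5, the junction cadherin, had 56.6, 71.8, 64.2 and 53.6 CPM in del7, against 44.6, 40.4, 50.4 and 52.0 CPM in del7_WT. All 4 del7 libraries lay above all 4 wild types, as was so for 2.41% of all tested genes, while 0 members lay wholly below (1.61%), and the gap was narrow, 53.6 against 52.0 CPM. The log2 fold change was 0.40 (SE 0.14, 95% interval 0.11 to 0.68), which did not pass adjustment over all genes (edgeR adjusted p = 1). It ranged from 0.31 to 0.45 over the 17 alternatives in processing, with a smallest adjusted p of 0.448. The same gene in AUG had 0.07, and the difference between the 2 effects was -0.32 (SE 0.19, edgeR adjusted p = 0.869).

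The other pan-endothelial members were higher by less than their error. Kdr had 109, 132, 122 and 122 CPM in del7, against 90.0, 102, 128 and 119 CPM in del7_WT. The groups overlapped (log2 fold change 0.14, SE 0.23, edgeR adjusted p = 1). Pecam1 had 33.5, 29.6, 33.9 and 25.8 CPM in del7, against 25.01, 26.0, 33.1 and 30.4 CPM in del7_WT, and its log2 fold change was 0.10 (SE 0.15, edgeR adjusted p = 1).

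Of the scavenger receptors, the stabilins matched closely between del7 and its wild types. Stab1 had 99.9, 111, 141 and 141 CPM in del7, against 107, 122, 154 and 125 CPM in del7_WT (log2 fold change -0.05, SE 0.29, edgeR adjusted p = 1). Stab2 had 154, 177, 174 and 164 CPM in del7, against 154, 173, 172 and 157 CPM in del7_WT (log2 fold change 0.03, 95% interval -0.29 to 0.35). The interval of Stab2 spans a ratio of 0.817 to 1.27. It takes its error from all 16 libraries, with an SE of 0.15, against 0.099 without AUG_WT replicate 1 and 0.086 with the del7 and del7_WT libraries alone. Lyve1 varied widely in both groups, with 2.29, 1.37, 12.7 and 8.83 CPM in del7, against 2.31, 3.34, 7.53 and 18.4 CPM in del7_WT. In each group Lyve1 was lower in replicates 1 and 2 than in replicates 3 and 4. Its log2 fold change, -0.34 (SE 0.78, edgeR adjusted p = 1), was -0.96 without del7 replicate 3 and 0.53 without del7_WT replicate 4.

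Fcgr2b had 80.9, 77.2, 73.4 and 74.9 CPM in del7, against 68.4, 74.3, 81.8 and 66.4 CPM in del7_WT, and the groups overlapped (log2 fold change 0.08, SE 0.11). Clec4g averaged 51.7 ± 5.75 CPM in del7 livers, against 52.2 ± 5.45 CPM in del7_WT livers (SD, n = 4 each), with a log2 fold change of -0.01 (95% interval -0.35 to 0.33). The del7 mean of each receptor thus lay within the range of the wild types. For Clec4g, del7 replicate 2 lay just under that range, at 45.5 CPM against a lowest wild type of 46.2 CPM. Oit3 averaged 39.7 ± 3.26 CPM in del7 livers, against 34.7 ± 6.15 CPM in del7_WT livers (SD, n = 4 each), with a log2 fold change of 0.20 (SE 0.22). Gpr182 averaged 35.6 ± 4.31 CPM in del7 livers, against 33.6 ± 7.06 CPM in del7_WT livers (SD, n = 4 each), with a log2 fold change of 0.09 (SE 0.27). Each of these had an edgeR adjusted p of 1.

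**Figure D3:**
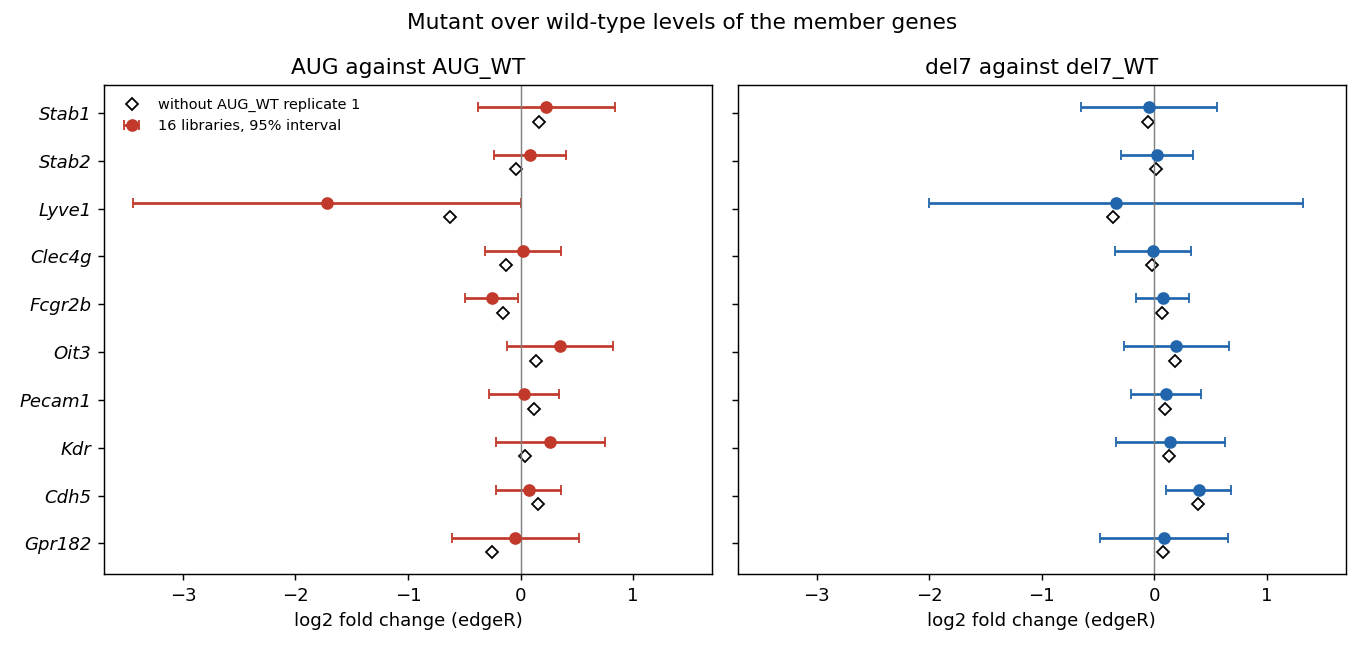
Log2 fold change of each member gene for AUG over AUG_WT (left) and del7 over del7_WT (right), with 95% intervals from all 16 libraries (filled points) and the value without AUG_WT replicate 1 (open diamonds). Lyve1 has the widest interval in both panels, and the AUG value of Lyve1 lies at -1.72 with that library and -0.63 without it.

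The AUG effect was set against the del7 effect for each member. For 0 of 10 members did these effects differ by edgeR at an adjusted p under 0.05, a threshold that 0.00693% of tested genes passed, and 0 members reached an unadjusted p under 0.05 (5.21% of tested genes). Fcgr2b was nearest, with a difference of -0.33 (SE 0.16, edgeR adjusted p = 0.864), and without AUG_WT replicate 1 its AUG effect was smaller, as given above. Between the wild types, AUG_WT and del7_WT, 0 of 10 members passed by edgeR, against 0.0347% of tested genes, and 0 reached an unadjusted p under 0.05, against 11.8%. Ranges overlapped for all 10 members, where 2.0% of tested genes were higher and 1.53% lower in AUG_WT without overlap. Fcgr2b averaged 84.9 ± 13.8 CPM in AUG_WT livers, against 72.7 ± 6.89 CPM in del7_WT livers (SD, n = 4 each), with a log2 difference of 0.22 (SE 0.11, edgeR adjusted p = 0.447). The value was 0.12 (SE 0.10, adjusted p = 0.862) without AUG_WT replicate 1. Leaving that library out, 0 members reached an unadjusted p under 0.05 for the difference of the effects (3.02% of tested genes) or between the wild types (7.47%).

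The members' balance between scavenging and general endothelial genes was summarised as a ratio. It set the summed CPM of the 7 scavenger and receptor members, with the secreted Oit3 counted among them, over that of Kdr, Pecam1 and Cdh5. The ratio was 2.29 ± 0.205 in AUG and 2.51 ± 0.406 in AUG_WT, and 2.35 ± 0.235 in del7 and 2.67 ± 0.158 in del7_WT (SD, n = 4 each). The AUG_WT mean was 2.45 without replicate 1. In both lines the mutant mean was lower and the ranges overlapped: AUG reached 2.56 and AUG_WT began at 1.94, and del7 reached 2.60 and del7_WT began at 2.50. Without Lyve1 and Stab1, left out after their values were seen, the ratio was 1.72 ± 0.118 in AUG and 1.92 ± 0.201 in AUG_WT. It was 1.74 ± 0.120 in del7 and 1.95 ± 0.160 in del7_WT (SD, n = 4 each). These ranges overlapped too: AUG reached 1.87 and AUG_WT began at 1.73, and del7 reached 1.85 and del7_WT began at 1.79. No test was made of this score.

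Other endothelial genes were equally without calls. Of 19 further lists of endothelial, hepatic and blood cell genes, 0 genes passed in AUG, in del7, in their difference or between the wild types, with smallest edgeR adjusted p-values of 0.561, 1, 0.864 and 0.241. Among 16 other sinusoidal genes, 9 were above 0 and 7 below in AUG (median log2 fold change 0.10), and likewise 9 and 7 in del7, with a median of 0.03. The AUG counts without AUG_WT replicate 1 were 8 and 8, with a median of 0.0014. The smallest p in AUG belonged to Plxnc1, a semaphorin receptor, at -0.30 (SE 0.16) and Mrc1, the mannose receptor of sinusoidal uptake, at 0.23 (SE 0.12), which were -0.06 and 0.16 without AUG_WT replicate 1. In del7 it belonged to Clec14a, an endothelial lectin, at 0.33 (SE 0.17) and Lgmn, a lysosomal protease, at 0.53 (SE 0.29).

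Of 20 pan-endothelial genes, 14 were above 0 in AUG (median 0.12) and 16 in del7 (median 0.05). Tek, the angiopoietin receptor, stood at 0.36 (SE 0.16) in AUG on the log2 scale and Calcrl, the receptor of adrenomedullin and CGRP, 0.27 (SE 0.12), both at an edgeR adjusted p of 0.561. Without AUG_WT replicate 1 Tek was at 0.23 and Calcrl at 0.17, and the AUG median was 0.05, with 12 above 0. The 12 tested angiocrine genes, the signals that endothelium sends to hepatocytes and vessel walls, had a median of -0.17 in AUG (-0.16 without AUG_WT replicate 1) and 0.08 in del7. Angpt2, the antagonist of Tek, averaged 1.01 ± 0.0784 CPM in AUG livers, against 1.99 ± 1.51 CPM in AUG_WT livers (SD, n = 4 each), and its log2 fold change was -1.002 (SE 0.42, edgeR adjusted p = 0.561). AUG_WT replicate 1, at 4.21 CPM, carried most of this: the other AUG_WT libraries had 1.71, 1.02 and 1.04 CPM, and without it the log2 fold change was -0.30 (SE 0.33, adjusted p = 0.926). Of 8 tested ligands of endothelial receptors, 4 were above 0 in AUG (3 without AUG_WT replicate 1) and 3 in del7. Vegfa, the ligand of Kdr, averaged 154 ± 20.2 CPM in del7 livers, against 169 ± 19.0 CPM in del7_WT livers (SD, n = 4 each), a log2 fold change of -0.14 (SE 0.20).

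Vessels that are not sinusoids were read from smaller lists. Of 7 portal endothelial genes, 7 were above 0 in del7, with a median log2 fold change of 0.32 against 0.00014 over all tested genes, and 3 were above 0 in AUG, with a median of -0.09 (-0.06 without AUG_WT replicate 1). Ntn4, a netrin of the vessel wall, averaged 18.7 ± 3.59 CPM in del7 livers, against 12.98 ± 2.40 CPM in del7_WT livers (SD, n = 4 each), and its log2 fold change was 0.53 (SE 0.21, edgeR adjusted p = 1). Of 7 central vein genes, 2 were above 0 in each mutant, with medians of -0.12 in AUG and -0.05 in del7, and 1 was above 0 in AUG without AUG_WT replicate 1. Of 5 lymphatic genes, Pdpn and Ccl21a did not pass the filter on low counts. The 3 tested genes, Prox1, Reln and Mmrn1, had a median of 0.07 in AUG and -0.02 in del7. Outside AUG_WT replicate 1, Mmrn1 averaged 0.736 CPM, against 241 CPM for Prox1 and 267 CPM for Reln. Reln is also on the list of stellate cell genes, and the cell source of Prox1 was not tested, so these medians do not single out lymphatic endothelium. The AUG direction turned without AUG_WT replicate 1, to a median of -0.11 with 0 of 3 above 0. Kupffer cells, the macrophages that share the sinusoid, had 12 of 13 markers above 0 in del7, with a median of 0.73 and 6 at an unadjusted p under 0.05 by edgeR, against 1.92% of all tested genes. With AUG_WT replicate 1 left out of the fit, 10 of 13 reached that p, against 5.34%. In AUG 6 of 13 Kupffer markers were above 0 (median -0.16), and 10 of 13 without AUG_WT replicate 1 (median 0.35). AUG_WT was above del7_WT for 12 of 13 (median 0.71), and for 11 of 13 without AUG_WT replicate 1 (median 0.24). The part of Kupffer cells in the del7 values of Cdh5 and of the portal list, which holds the macrophage scavenger receptor Msr1, was not tested. Dll4 and Efnb2 are on both the portal and the angiocrine list.

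AUG_WT replicate 1, the library rich in immune markers, separated the members from each other. Relative to the mean of the other 15 libraries, Kdr stood at a log2 ratio of -1.39, Oit3 at -1.34 and Gpr182 at -1.01, while Lyve1 stood at 2.14. The sinusoidal genes Stab2 and Clec4g were both at -0.69 and Stab1 at -0.56, and Fcgr2b (0.41), Pecam1 (0.20) and Cdh5 (0.13) were above 0. As 1 library, this has no replicate and no test.

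In CPM, Kdr was 45.0 in AUG_WT replicate 1, against 90.0 to 132 in the others, and Oit3 was 14.7, against 27.6 to 43.2. Stab2 was 100.2, against 136 to 192, Clec4g 33.6, against 45.5 to 63.5, and Gpr182 18.1, against 26.4 to 61.3. These 5 of 10 members had their lowest value of all 16 libraries in AUG_WT replicate 1, and 25.8% of tested genes did so. Lyve1, at 24.1 CPM against 1.36 to 18.4, and Fcgr2b, at 99.1 against 66.4 to 93.1, had their highest value there, as did 28.9% of tested genes. Past 2-fold of the other libraries' mean, 3 members were lower (12.1% of tested genes) and 1 higher (14.3%).

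The direction of each of the 10 ratios was the same under every scaling tried, but their size was not. The TMM factor of AUG_WT replicate 1 was 1.36, against 0.877 to 1.04 in the others. On plain totals the median of all genes moved from -0.0042 to 0.47, and 0 members were past 2-fold lower, with Kdr at -0.91 and Oit3 at -0.87. As a share of all gene counts the 10 members made up 0.0684% of AUG_WT replicate 1, inside the range of 0.0535% to 0.0772% in the other libraries.

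On the TMM scale, most other sinusoidal and pan-endothelial genes were also low in AUG_WT replicate 1. The list values here are given on that scale only, and plain totals moved the median of all genes to 0.47. Of 16 other sinusoidal genes, 12 were below the mean of the other libraries and 11 had their lowest value there (25.8% of tested genes). Their median log2 ratio was -0.60, against -0.0042 over all genes. Cd36, a fatty acid transporter that hepatocytes also make, had 82.2 CPM, against 139 to 247 in the others, and Ehd3, an endocytic protein, 47.0 CPM, against 91.3 to 138. Lgmn, a protease that macrophages also make, had 132 CPM, against 39.0 to 105. Of 20 pan-endothelial genes, 16 were below that mean, with a median of -0.53. Nrp1, a co-receptor of VEGF, had 43.4 CPM, against 75.4 to 182, and Cldn5, a tight junction protein, 2.53 CPM, against 3.53 to 7.66. In the same list Acvrl1, a receptor for BMP9 and BMP10, had 17.5 CPM, against 3.53 to 7.89, and Ecscr 5.47 CPM, against 1.60 to 3.23, both the highest of 16 libraries. Of 12 tested angiocrine genes, 5 were above that mean and 7 below, with a median of -0.30. Bmp6, which sets hepcidin in hepatocytes, had 2.81 CPM, against 5.17 to 19.2, and its relative Bmp2 12.8 CPM, against 20.5 to 34.4. Angpt2, at 4.21 CPM against 0.889 to 2.15, and Pdgfb, which recruits pericytes, at 8.42 CPM against 1.77 to 5.96, were the highest of 16.

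Genes of continuous endothelium lay on the other side. Of 12 tested, 10 were above the mean of the other libraries and 8 had their highest value in AUG_WT replicate 1 (28.9% of tested genes). Their median log2 ratio was 1.20. Ly6a had 158 CPM, against 4.42 to 30.2, and Vcam1, an adhesion molecule of activated vessels, 145 CPM, against 17.1 to 44.7. Esm1 had 6.87 CPM, against 0.114 to 4.13, and Gja5, an arterial connexin, 1.89 CPM, against 0.210 to 1.07. Ly6a is also made by lymphocytes and Vcam1 by macrophages, so the part of those cells was not tested.

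Endothelial transcription factors were split: of 18, 10 were above the mean of the other libraries and 8 below, with a median log2 ratio of 0.20. Gata4, which drives the sinusoidal programme, had 13.8 CPM in AUG_WT replicate 1, against 20.5 to 29.2 in the others. Nr2f2 had 34.3 CPM, against 45.0 to 64.9. Maf, on the same list, was not low, with 94.6 CPM against 72.1 to 101, and Meis2 stood at a log2 ratio of -0.13. Mef2c had 142 CPM, against 6.58 to 12.8, Lmo2 17.2 CPM, against 3.41 to 6.01, and Fli1 35.4 CPM, against 5.91 to 12.3. These last 3, and Tcf4 at 177 CPM against 44.0 to 75.0, are also made by B cells or other blood cells. Beside them, B cell markers had a median log2 ratio of 5.51, with 12 of 12 highest in AUG_WT replicate 1, T and natural killer cell markers 3.90 (8 of 8), recruited myeloid markers 2.41 (10 of 10), cell cycle genes 3.58 (7 of 7), Kupffer markers 0.93 (7 of 13 highest) and hepatocyte genes -1.08, with 9 of 10 lowest. The immune marker values restate the content for which this library was picked. The part of these lists in the members' values was not tested.

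**Figure D4:**
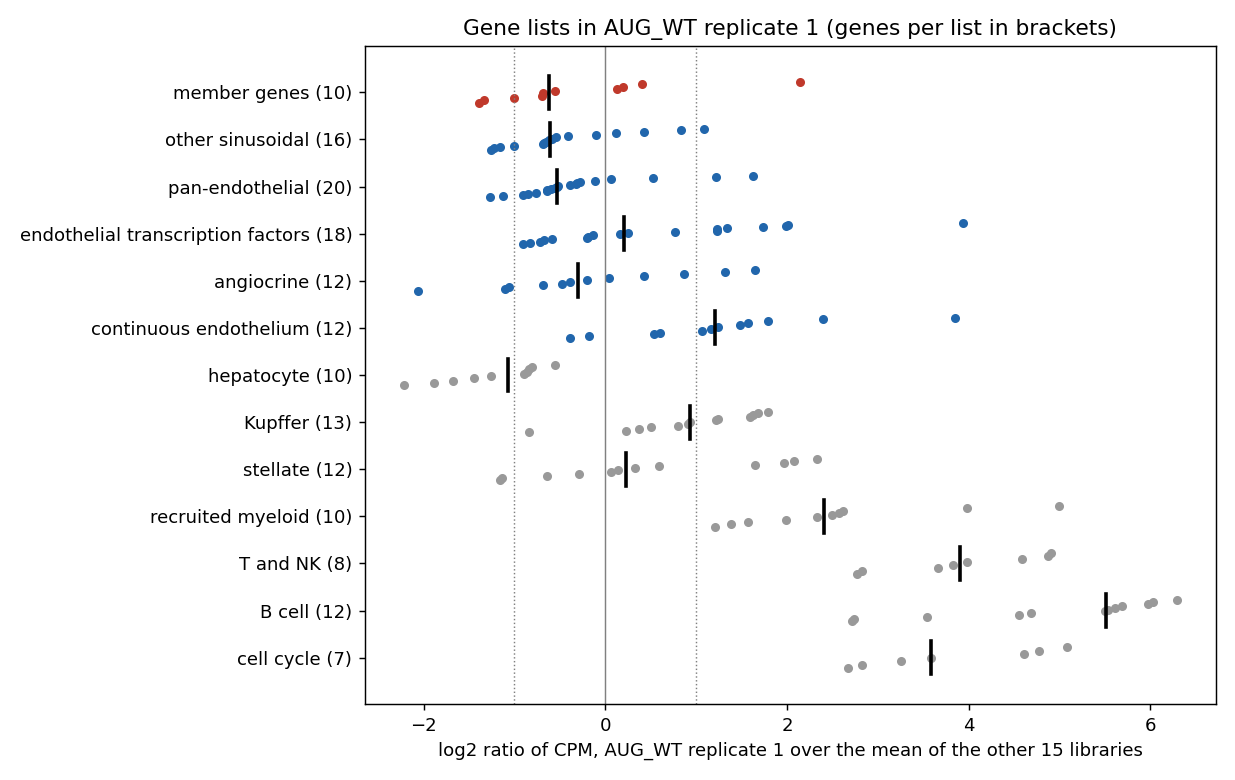
Log2 ratio of CPM in AUG_WT replicate 1 to the mean of the other 15 libraries for each tested gene of 13 lists (points), with the list median (black bars) and dotted lines at 2-fold. The members run from -1.39 for Kdr to 2.14 for Lyve1, sinusoidal and pan-endothelial lists have medians of -0.60 and -0.53, and B cell markers 5.51.

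Stab1 in AUG_WT replicate 4 was another value that stood apart. It had 37.7 CPM from 472 counts, against 120 ± 19.5 CPM in the other 15 libraries (SD), whose lowest was 79.7 CPM, a ratio of 0.313. Its paralogue Stab2 was at 0.852 of the others in the same library, and the 9 remaining members ran from 0.550 for Lyve1 to 1.145 for Clec4g. The 10 tested genes nearest to Stab1 had ratios of 0.862 to 1.38, so the low value did not extend to its neighbours. A level below 50% of every other library was seen for 28 genes (0.194% of those tested) in AUG_WT replicate 4. Among them was Marco, a scavenger receptor of Kupffer cells, at 1.20 CPM against 2.69 to 79.3. The remaining Kupffer markers on the list lay inside the range of the other libraries there, among them Vsig4 at 33.8 CPM and C1qa at 35.1 CPM. Gpr182 in AUG_WT replicate 2 also stood apart, at 61.3 CPM against 18.1 to 41.7 CPM in the others. Stab2 (192 CPM) and Clec4g (63.5 CPM) had their highest value of 16 libraries in AUG_WT replicate 2 too, whose TMM factor was 0.877.

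The members also differed in how far they varied within groups. The pooled SD of log2 CPM within groups was 1.20 for Lyve1, at percentile 99.0 of 8334 genes with a mean of at least 10 CPM, although Lyve1 itself lies under that level in most libraries. It was 0.47 for Stab1 (percentile 87.6), 0.41 for Gpr182 (82.7), 0.37 for Kdr (78.6) and 0.35 for Oit3 (75.5). Clec4g (0.24), Stab2 (0.21), Pecam1 (0.21), Cdh5 (0.19) and Fcgr2b (0.14) were near or under the median of 0.23. Without AUG_WT replicate 1, left out here after its values were seen, the SD was 0.13 for Kdr (percentile 24.7 of 8224 genes), 0.17 for Oit3 (45.2), 0.13 for Stab2 (24.3) and 0.12 for Clec4g (19.8), against a median of 0.18. Lyve1 (1.08), Stab1 (0.49) and Gpr182 (0.30) had the widest spread without it too, at percentiles 99.1, 94.6 and 83.2. Fcgr2b had 0.14 with that library and 0.13 without it.

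The genes whose levels followed the members most closely were found by the Pearson correlation of log2 CPM with the mean centred profile of the members, as a description over libraries that share depth and scaling. Over 16 libraries these were Hid1 (0.836), Mxd4 (0.811), Plekhg1 (0.803), Hecw2 (0.794), Fbxl7 (0.786), Tfpi (0.764), Ushbp1 (0.749) and Hspg2 (0.710). Over the 15 libraries without AUG_WT replicate 1 they were Slx4ip (0.823), Hid1 (0.819), Fbxl7 (0.812), Hecw2 (0.810), Btnl9 (0.805), Mxd4 (0.792), Plekhg1 (0.788) and Ptprb (0.786). Tfpi, an inhibitor of coagulation made by endothelium, and Hspg2, the basement membrane proteoglycan perlecan, had r of 0.751 and 0.677 in the smaller set. Slx4ip had 0.424 over all 16 libraries, so its place rests on leaving out AUG_WT replicate 1. The members were centred but not scaled to equal spread for this profile, so Lyve1 weighed most in it. Lyve1 had a within-group SD of 1.20, against 0.14 to 0.47 for the other members, and only 17 to 343 counts a library. Likeness to the profile is thus in large part likeness to Lyve1.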

How the data were processed

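Per the labels' protocols, liver RNA was depleted of ribosomal RNA and made into directional libraries. The submitters' processing notes name cutadapt 2.10, STAR 2.7.9a and the build GRCm39. The release of the annotation was not given in the sources used here. Deposited files hold read counts per gene as whole numbers, and in all 16 libraries the table of the series was identical to the reverse-strand counts. All columns matched a sample by title, and 0 were left unmapped. Unmapped reads (2.82% to 3.93%), multimapping reads (9.23% to 15.0%) and reads outside genes (21.8% to 35.0%) stayed out of totals.

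GENCODE M21 on GRCm38 named 52081 of 55357 genes and gave exon lengths; no coordinates were moved between builds. Tests were made with edgeR 4.0.16 (R 4.3.3): filterByExpr with a minimum count of 10, TMM, and a quasi-likelihood fit of group means over 16 libraries (12 residual degrees of freedom), two-sided, with Benjamini-Hochberg adjustment over 14421 genes at 0.05. CPM use TMM-scaled totals, and log2 CPM a prior count of 2. The fit was tested on simulated counts. Named genes were all members and, of each list, the 2 with the smallest p in a comparison or up to 4 with the largest ratio in AUG_WT replicate 1. Examples were taken from these, and Gata4, Maf, Marco, Meis2 and Nr2f2 were named after their values were seen. The members and lists were chosen with earlier results of these data known. Terc itself is not analysed here. Alternatives were RLE factors, other filters, DESeq2 1.42.0, limma 3.58.1, the groups compared alone, a replicate block, unstranded counts, plain totals and leaving out each library.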

Additional observations from a re-analysis of the deposited data

Results flagged for a closer look

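Of 40 pairs of a member and a group, 3 had 1 library far from the other 3, and chance gives about 1 in 20. Stab1 was 128 CPM in AUG replicate 4, above 108 to 109 CPM in the other AUG libraries. Lyve1 was 24.1 CPM in AUG_WT replicate 1, above 3.70 to 6.14 CPM in the other AUG_WT libraries. Kdr was 45.0 CPM in AUG_WT replicate 1, below 119 to 120 CPM in the others. Both values of AUG_WT replicate 1 come with its high immune markers, whose part was not tested.

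Reads on the strand opposite to Gpr182, which no comparison used, came to 220 over the 16 libraries, 7 to 18 in each. Zbtb39 is annotated on that strand and overlaps Gpr182.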

How the results depend on the processing

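By edgeR 0 members were called in any of the 4 comparisons, and 0 were called under any alternative run. Uncalled fold changes of members took the opposite sign in 11 of 160 values in AUG (6 members) and 12 of 170 in del7 (5 members). Counts over all genes moved more. In AUG against AUG_WT 4 genes were called, 9 by DESeq2 and 3 to 5 with 1 library left out. In del7 against del7_WT 0 were called (277 at an unadjusted p under 0.05), 1 by DESeq2, 0 by limma voom and 0 with 1 library left out. For the difference of the effects 1 was called, 6 by DESeq2, 2 by limma voom, 2 without AUG_WT replicate 1, and 1 to 2 over all left-out libraries. Between the wild types 5 were called, 70 by DESeq2, 11 with no filter, 13 with the 2 groups alone, 3 with unstranded counts, and 1 to 10 with 1 library left out, the extremes being 1 without AUG_WT replicate 2 or del7_WT replicate 2 and 10 without AUG_WT replicate 1. The causes were not tested. Members past 2-fold lower in AUG_WT replicate 1 numbered 3, and 0 on plain totals. Stab1 in AUG_WT replicate 4 stayed the lowest of 16 under the scalings and the strand setting added after seeing the data.

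Replicate numbers are shared between groups. For del7 and del7_WT, r across genes was positive for every same-numbered pair, at 0.09 to 0.28, against -0.33 to 0.18 for pairs of different numbers. For AUG and AUG_WT it was -0.16 to 0.35 for the same number and -0.33 to 0.32 for different numbers. Between the wild types these were -0.07 to 0.06 and -0.14 to 0.15. In the del7 line the values for the same number thus tended to be higher, but the ranges overlapped. Whether libraries of the same number share a structure was not tested. With the replicate number as a block, 4 genes were called in AUG, 0 in del7, 2 for the difference and 1 between the wild types. Depth limits Lyve1 most, at 17 to 343 counts a library, against 207 to 2201 for the other members.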
